A study of Mus musculus with 6 samples.

Results

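The clustered histone genes were taken as every protein-coding gene of the count table whose mouse symbol begins with Hist1h, Hist2h, Hist3h or Hist4h. They were split by the type in the symbol into linker histone H1 and the core histones H2A, H2B, H3 and H4. Of 43346 genes in the table, 64 were members: 6 H1, 18 H2A, 15 H2B, 12 H3 and 13 H4 genes. The rule used names only and no measured value. Reads were counted in 6 RNA sequencing libraries from primary mouse embryonic fibroblasts, cells grown out of embryos and kept in culture for a limited number of passages. All libraries came from the C57BL/6 strain at passage 9, with no transgene or other allele named in the labels. In 3 libraries the cells had been given 3 µM erastin for 24 h, and the 3 control libraries are labelled DMSO, the solvent. Erastin is a small molecule that blocks cystine import and is used to trigger ferroptosis. Ribosomal RNA was removed from total RNA with no selection for poly(A) tails, so RNAs that lack a tail could be read.

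Histone proteins package DNA into nucleosomes. Core histones H2A, H2B, H3 and H4 form the particle around which DNA is wound, and H1 binds the linker DNA between particles. Most of the protein is made during S phase from the clustered genes, whose mRNAs as a rule end in a conserved stem-loop instead of a poly(A) tail. The stem-loop binding protein Slbp holds that structure while the transcript is cut and translated, and the mRNAs are degraded when DNA replication stops. Other histone genes lie outside the clusters, and many of them, though not all, are spliced, polyadenylated and made through the whole cell cycle.

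The annotated transcripts of 44 of the 64 members held a match to the stem-loop, searched as a 16-base sequence pattern. The pattern allowed several letters at some positions and did not itself require the stem to pair. A match was found in 53 of all 21901 protein-coding genes with a transcript in GENCODE M21, or 0.242%. The 8 examples here show how the element varied between types. Capitals mark the stem-loop and lower case the 5 bases on each side, read 5′ to 3′ from the transcripts.
Hist1h1c: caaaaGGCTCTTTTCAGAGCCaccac
Hist1h2bf: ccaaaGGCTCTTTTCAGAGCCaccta
Hist1h3c: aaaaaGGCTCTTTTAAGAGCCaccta
Hist1h3g: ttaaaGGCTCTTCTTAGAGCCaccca
Hist2h2ac: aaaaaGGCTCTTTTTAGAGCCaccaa
Hist2h3c2: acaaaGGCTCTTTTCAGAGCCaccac
Hist1h4d: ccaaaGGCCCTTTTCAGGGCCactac
Hist1h4j: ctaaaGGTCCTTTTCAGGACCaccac
The core of Hist1h1c, Hist1h2bf and Hist2h3c2 was the most frequent and stood in 24 members, none of them an H4 gene. That of Hist1h4d stood in 7 members, all of them H4 genes, and that of Hist1h3c in 6. Hist1h4j shared its core with Hist1h4b, and the loop of Hist1h3g and the core of Hist2h2ac stood in no other member. No match in the other 20 members says only that these letters are not in the annotated transcript. Members with the same core differed in their change with erastin: Hist1h1c, Hist1h2bf and Hist2h3c2 carry the same 16 bases and had log2 fold changes of -1.24, -5.08 and -0.87.

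All 64 members together took 0.151%, 0.188% and 0.156% of the counts in the DMSO libraries and 0.0303%, 0.0426% and 0.0379% in the erastin libraries. Exact 95% binomial (Clopper-Pearson) intervals were narrow, such as 0.186% to 0.190% for DMSO replicate 2 and 0.0295% to 0.0310% for erastin replicate 1, and cover counting error only. On the scale of CPM, which sets counts against library size after scaling by the trimmed mean of M values, the sum was 1690 ± 213 in DMSO and 363 ± 70.3 in erastin (SD, n = 3), a 4.66-fold lower level. DMSO libraries were at 1520, 1930 and 1620 CPM and erastin libraries at 289, 429 and 371 CPM, so the groups were far apart. In bulk RNA, fewer cells transcribing histone genes and less histone RNA per cell cannot be told apart.

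Of the 64 members, 53 passed the filter on low counts and were tested. With erastin, 49 of the 53 fell and 0 rose at an adjusted p under 0.05 (edgeR quasi-likelihood test, Benjamini-Hochberg over 14000 genes). Over all genes tested 43.1% passed, and 21.5% fell and 21.6% rose. At an unadjusted p under 0.05 there were 51 lower members and 0 higher, and DESeq2 called 47 lower and 0 higher. The median log2 fold change of the tested members was -2.85, against -0.0014 over all genes. In 51 of the 53 every erastin library was below every DMSO library, a pattern shown by 25.8% of all genes; the opposite pattern was shown by 0 members and 26.7% of all genes. A call as lower together with a log2 fold change of -2 or less was reached by 40 of the tested members and by 2.08% of all genes tested. A call as lower with a value of -3 or less was reached by 24 of the tested members and by 83 of the 14000 genes tested, members included. The 4 tested members that did not pass were Hist2h2ab, Hist3h2a, Hist2h2be and Hist2h3c2.

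The members left out by the filter were Hist1h1t, Hist1h2aa, Hist1h2ao, Hist1h2ap, Hist2h2aa1, Hist1h2ba, Hist1h2bq, Hist1h2br, Hist3h2ba, Hist2h3c1 and Hist1h4m. Their counts lay between 0 and 22 per library, and Hist2h3c1 was at 0 in all 6. Of the 50-base windows of Hist2h3c1 0% are unique, so its counts are uncertain. The members left out include Hist1h1t, Hist1h2aa and Hist1h2ba, known as testis histones. A total of 3 counts, the limit that a count of 0 allows, equals 0.140 to 0.234 CPM in these libraries. The protein-coding genes Hist1h2bm, Hist2h2bb and Hist1h2bh were not analysed here. They are H2B genes by symbol, so the H2B sum and the shares within it leave them out.

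Summed by type, all 5 groups were lower with erastin, and the fold differed between them. H3 genes summed to 220, 262 and 213 CPM in DMSO and 22.3, 35.3 and 28.9 CPM in erastin, an 8.03-fold lower level (log2 ratio -3.01). H2A genes went from 122, 157 and 131 CPM to 15.3, 21.1 and 15.9 CPM, which is 7.84-fold lower (log2 ratio -2.97). These were the types with the lowest sums in both groups. H4 genes summed to 442, 624 and 442 CPM against 79.5, 151 and 105 CPM, a 4.51-fold lower level (log2 ratio -2.17). For H1 the sums were 517, 569 and 575 CPM and 111, 133 and 141 CPM, which is 4.31-fold lower (log2 ratio -2.11). The H2B sum changed least, from 219, 317 and 257 CPM to 61.1, 88.5 and 79.9 CPM, 3.46-fold lower (log2 ratio -1.79). In none of the 5 types did the 2 treatments overlap. The sums were given no test, and the difference between types was not tested.

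**Figure D1:**
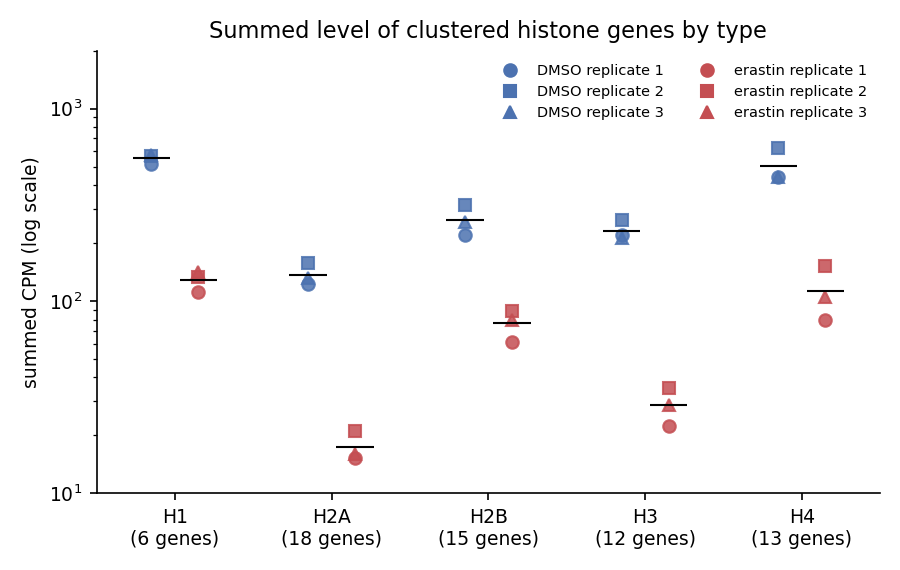
Summed level of the clustered histone genes by type in each library, in CPM on a log axis; each point is 1 library (3 DMSO, 3 erastin) and each type carries its number of genes. Every erastin point lies below every DMSO point of its type, with H3 at 22.3 to 35.3 CPM against 213 to 262 CPM.

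Leaving out each library in turn kept the H2A ratio between -3.13 and -2.86 and the H3 ratio between -3.18 and -2.85 (log2). The ratios of the other types stayed above these, at -2.18 to -2.01 for H1, -1.91 to -1.64 for H2B and -2.45 to -1.98 for H4. Per kilobase of annotated exon, H4 had the highest sum in DMSO, 760 ± 180 CPM per kb, and H2A the lowest, 271 ± 31.4 (SD, n = 3). This scale sets genes of different length side by side, but long annotated ends lower a gene's value, so ranks depend on the annotation. On that scale the erastin values were 150 ± 51.7 for H4 and 32.2 ± 6.30 for H2A. The H2B log2 ratio moved to -2.24 per kilobase, close to H1 at -2.27 and H4 at -2.34.

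In H1 and H2B the make-up of the RNA shifted towards 1 gene each. Hist1h1c supplied 36.8%, 38.1% and 37.5% of the H1 counts in DMSO and 70.4%, 69.0% and 66.5% in erastin. Hist1h2bc supplied 28.2%, 25.6% and 29.4% of the H2B counts in DMSO and 70.2%, 52.8% and 62.9% in erastin. Without Hist1h1c the H1 sum went from 346 ± 17.1 to 40.5 ± 7.30 CPM (SD, n = 3), 8.55-fold lower. Without Hist1h2bc the H2B sum went from 192 ± 40.2 to 29.9 ± 11.8 CPM, 6.41-fold lower. These 2 sums were chosen after the values were seen. In H4 the leading gene Hist1h4d held 25.0 ± 3.04% of H4 counts with DMSO and 28.8 ± 3.49% with erastin, while Hist1h4f went from 12.0 ± 0.537% to 6.28 ± 0.523% and Hist1h4j from 4.13 ± 0.694% to 1.06 ± 0.313%.

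**Figure D2:**
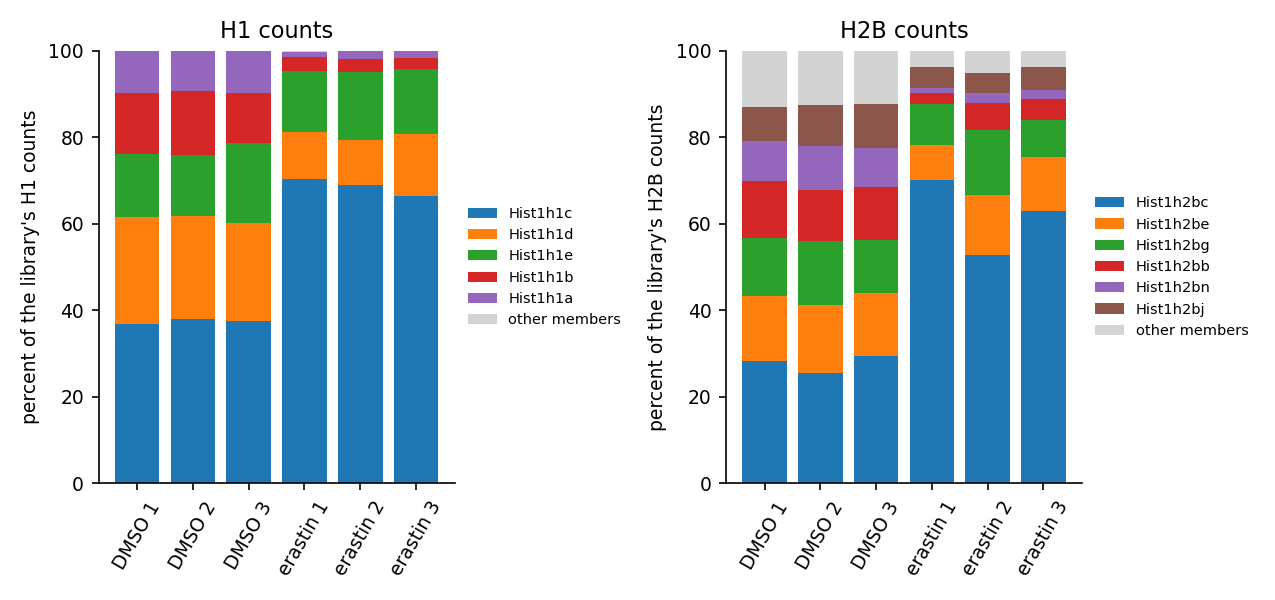
Share of each library's H1 and H2B counts, in percent, that each gene supplied; bars are single libraries and grey stands for the remaining members of the type. The Hist1h1c and Hist1h2bc segments are larger in all 3 erastin libraries, at 66.5% to 70.4% and 52.8% to 70.2%.

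All 5 tested H1 genes fell, with log2 fold changes from -4.67 to -1.24. These somatic linker histones differ in sequence, and at least 91.5% of the 50-base windows of Hist1h1a, Hist1h1b, Hist1h1c and Hist1h1d occur in no other annotated gene. Hist1h1a (ENSMUSG00000049539.2, chr13:23763666-23764406) was at 50.2, 52.9 and 56.0 CPM in DMSO and at 1.30, 2.57 and 2.44 CPM in erastin. Its level was 25.5-fold lower (log2 fold change -4.67 with an SE of 0.199, edgeR adjusted p = 5.4e-10). Hist1h1b (ENSMUSG00000058773.2, chr13:21779883-21780625) had 73.1, 83.5 and 66.9 CPM against 3.58, 4.25 and 3.63 CPM, with a log2 fold change of -4.29. For both genes every erastin library was far below every DMSO library. Hist1h1d (chr13:23553262-23560686) stood at 128, 136 and 131 CPM and then at 11.9, 13.8 and 20 CPM, a log2 fold change of -3.11. Values for Hist1h1e (chr13:23620629-23622558) were 75.7, 80.2 and 106 CPM and 15.8, 20.8 and 21.2 CPM, a log2 fold change of -2.18. Its annotated span overlaps that of Hist1h2be on the same strand, so reads there could have been counted for either gene.

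Hist1h1c (ENSMUSG00000036181.2, chr13:23738808-23740367), which encodes the variant H1.2, was the H1 gene with the smallest fall. It was at 190, 216 and 215 CPM in DMSO and at 78.0, 92.0 and 93.9 CPM in erastin. Its level was 2.36-fold lower (log2 fold change -1.24, SE 0.0899, 95% interval -1.43 to -1.05, edgeR adjusted p = 7.74e-08). It was the most abundant H1 transcript in both groups, also per kilobase, at 133 CPM per kb in DMSO and 56.4 in erastin. Hist1h1b came next in DMSO at 100 CPM per kb and dropped to 5.14 in erastin, below Hist1h1e at 9.97. Hist1h1d, second in CPM in DMSO, was at 17.7 CPM per kb there over an annotated exon of 7425 bases.

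Of the 14 tested H2A genes 12 fell, with log2 fold changes over the tested genes from -5.42 to -1.09 and a median of -2.94. Hist1h2ab (chr13:23751126-23751598), the H2A gene with the highest mean CPM, was at 27.8, 36.5 and 24.8 CPM in DMSO and 1.77, 3.35 and 2.33 CPM in erastin (log2 fold change -3.60, SE 0.232, edgeR adjusted p = 2.52e-08). Hist1h2ak had 24.9, 23.8 and 24.8 CPM and then 2.28, 3.77 and 3.42 CPM, a log2 fold change of -2.96. Hist2h2ac, from the cluster on chromosome 3, had 19.8, 23.9 and 24.7 CPM and then 2.61, 4.55 and 2.39 CPM, a log2 fold change of -2.85. Hist1h2ac was at 12.0, 18.6 and 10.9 CPM against 2.00, 2.93 and 2.13 CPM, with a log2 fold change of -2.57. None of these 4 genes overlapped between groups. Hist1h2ah had the lowest H2A fold change, -5.42, and few reads: 67, 73 and 35 counts in DMSO and 5, 0 and 0 in erastin. Without erastin replicate 1, which held those 5 counts, its fitted value was -8.99, which depends on the prior count and is no bound. Of its 50-base windows 7.87% are unique, so its counts are uncertain.

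Hist2h2ab and Hist3h2a were the H2A genes that did not pass. Hist2h2ab was at 1.51, 2.38 and 1.63 CPM in DMSO and 0.419, 1.20 and 0.519 CPM in erastin (log2 fold change -1.39, edgeR adjusted p = 0.0662). All 3 of its erastin values lay under all 3 DMSO values. It passed without erastin replicate 2, with a log2 fold change of -1.97 and an edgeR adjusted p = 0.0418. Hist3h2a, on chromosome 11, had 1.66, 2.05 and 4.75 CPM against 1.96, 1.20 and 0.778 CPM (log2 fold change -1.09, edgeR adjusted p = 0.121). Its groups overlapped, and DMSO replicate 3 stood above the other 5 libraries; without it the log2 fold change was -0.50 (edgeR adjusted p = 0.528). Its annotated span overlaps Trim17 on the same strand. Hist3h2a made up 2.10 ± 1.33% of the H2A counts in DMSO and 7.78 ± 4.34% in erastin (SD, n = 3).

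The H2B genes held both a very large and the smallest called change among the members. Of 11 tested, 10 fell, with a median log2 fold change of -2.71. Hist1h2bf (chr13:23573736-23574196) was at 10.2, 12.6 and 11.9 CPM in DMSO and 0.279, 0.659 and 0.104 CPM in erastin, 33.9-fold lower (log2 fold change -5.08, SE 0.461, edgeR adjusted p = 2.45e-07). Only 6, 11 and 2 reads were counted in the erastin libraries, and the value moved to -5.83 without erastin replicate 2. Hist1h2bb had 28.5, 37.0 and 32.0 CPM and then 1.63, 5.57 and 3.94 CPM, a log2 fold change of -3.16. Hist1h2be and Hist1h2bg, next after Hist1h2bc in mean CPM, had log2 fold changes of -2.16 and -2.08. Per kilobase Hist1h2be was far lower, at 9.01 CPM per kb in DMSO against 58.2 for Hist1h2bg, 63.9 for Hist1h2bb and 63.1 for Hist1h2bc. Annotated exons cover 4446 bases in Hist1h2be and 508 in Hist1h2bb, so this rank depends on the annotation. The values of Hist1h2be were 33.3, 49.3 and 37.5 CPM against 4.84, 12.3 and 9.96 CPM. Those of Hist1h2bg were 29.3, 47.3 and 31.3 CPM against 5.82, 13.2 and 6.84 CPM.

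Hist1h2bc (ENSMUSG00000018102.4, chr13:23684199-23692908) was at 61.9, 81.2 and 75.7 CPM in DMSO and at 42.9, 46.8 and 50.2 CPM in erastin. Every erastin library was below every DMSO library, by a 1.57-fold change in level (log2 fold change -0.65, SE 0.110, 95% interval -0.88 to -0.41, edgeR adjusted p = 2.37e-04). It is 1 of the 5 members with an annotated transcript of more than 1 exon, and none of its annotated transcripts held the stem-loop. Hist2h2be (ENSMUSG00000068854.7, chr3:96221119-96223738) had 0.378, 0.942 and 0.778 CPM in DMSO and 0.466, 0.838 and 0.363 CPM in erastin. The groups overlapped, and no change was detectable at this depth of 5 to 17 counts per library (log2 fold change -0.36, 95% interval -1.80 to 1.09, edgeR adjusted p = 0.701).

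Among the 11 tested H3 genes, 10 fell, with a median log2 fold change of -3.10. The clustered H3 genes encode the replication-dependent forms of the protein. Hist1h3g (ENSMUSG00000099517.1, chr13:23535422-23535951) had the lowest log2 fold change of all members. It was at 9.67, 12.6 and 10.6 CPM in DMSO and 0.0931, 0.180 and 0.467 CPM in erastin, 43.6-fold lower (log2 fold change -5.45, SE 0.489, edgeR adjusted p = 1.46e-07). Reads numbered 2, 3 and 9 in the erastin libraries, and without erastin replicate 3 the value was -6.30. Hist1h3c had 30.2, 31.8 and 36.2 CPM and then 1.02, 1.98 and 2.02 CPM, a log2 fold change of -4.30. Hist1h3h was at 21, 26.4 and 24.2 CPM against 1.12, 2.16 and 3.53 CPM, with a log2 fold change of -3.41. The H3 genes with the highest CPM were Hist1h3f and Hist1h3e, though per kilobase both were below Hist1h3h and Hist1h3c in DMSO, at 30.2 and 44.7 against 58.1 and 51.9 CPM per kb. Hist1h3f had 35.9, 45.6 and 32.6 CPM against 3.86, 9.94 and 5.03 CPM, and Hist1h3e had 38.1, 39.9 and 34.2 CPM against 5.77, 8.08 and 7.05 CPM. Their log2 fold changes were -2.62 and -2.43.

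Hist2h3c2, on chromosome 3, was the H3 gene that did not pass. Its values were 4.84, 3.33 and 4.98 CPM in DMSO and 3.03, 2.16 and 1.97 CPM in erastin (log2 fold change -0.87, SE 0.359, edgeR adjusted p = 0.0649). Its groups did not overlap. Its share of the H3 counts was 1.94 ± 0.579% in DMSO and 8.83 ± 4.12% in erastin (SD, n = 3).

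All 12 tested H4 genes fell, with log2 fold changes from -4.16 to -1.74 and a median of -2.09. Hist1h4d (ENSMUSG00000061482.6, chr13:23581598-23582735), the highest in CPM, was at 116, 134 and 121 CPM in DMSO and 26.1, 39.9 and 28.4 CPM in erastin, 3.95-fold lower (log2 fold change -1.98, SE 0.131, edgeR adjusted p = 3.66e-08). Hist1h4c had 71.5, 116 and 69.0 CPM and then 16.0, 33.3 and 23.0 CPM, a log2 fold change of -1.84. Hist1h4h had 62.9, 93.8 and 53.5 CPM and then 10.3, 26.4 and 17.0 CPM, a log2 fold change of -1.99. In these genes replicate 2 was the highest library of each group. Hist1h4f was at 51.6, 78.7 and 51.7 CPM against 4.70, 10.4 and 6.33 CPM, with a log2 fold change of -3.11. Hist1h4i had the highest log2 fold change of the type, -1.74, with 10.1, 10.3 and 12.1 CPM against 2.28, 4.43 and 3.11 CPM. Hist1h4j had the lowest, -4.16 (SE 0.346, edgeR adjusted p = 2.2e-07), with 17.6, 30.5 and 15.6 CPM against 0.605, 1.56 and 1.45 CPM. Per kilobase Hist1h4f and Hist1h4h were above Hist1h4d in DMSO, at 155 and 149 against 109 CPM per kb. The H4 genes encode the same or nearly the same protein.

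**Figure D3:**
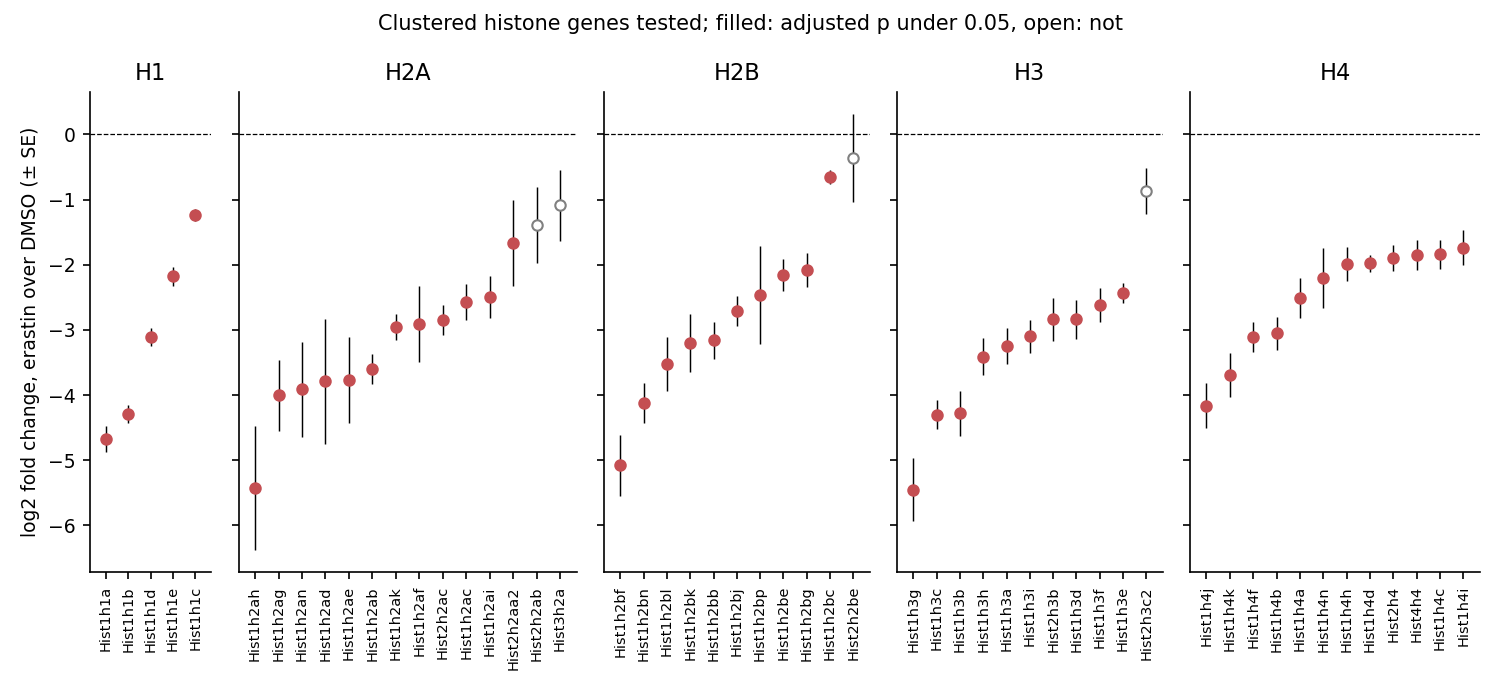
Log2 fold change of each tested member, erastin over DMSO, with its SE, in 1 panel per type; filled points passed the adjusted p of 0.05 and open points did not. All lie below 0, from -5.45 for Hist1h3g to -0.36 for Hist2h2be, and the H4 panel has no point above -1.74.

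Within a group, some libraries were the highest or the lowest in more of the tested members than others. Members share libraries and in part sequence, so these counts are not separate observations, and the order over all genes was not counted. DMSO replicate 2 was the highest DMSO library in 36 of the 53 tested members, DMSO replicate 3 in 13 and DMSO replicate 1 in 4. Among the erastin libraries, replicate 2 was the highest in 30 members and replicate 1 the lowest in 36. Erastin replicate 1 also had the largest total, 20509970 counts. The number of members that fell was 47 to 48 when any 1 library was left out.

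By location, 52 members lie in the Hist1 cluster at chr13:21715763-23934851 and 9 in the Hist2 cluster at chr3:96219865-96269141 (GENCODE M21, mm10). All 44 tested Hist1 members fell, with a median log2 fold change of -3.10. Of the 7 tested Hist2 members 4 fell, with a median of -1.67, where 21.5% of all genes fell. Those 4 were Hist2h2aa2, Hist2h2ac, Hist2h3b and Hist2h4, with log2 fold changes of -1.67, -2.85, -2.84 and -1.90. Hist2h2aa2 had 4 to 17 counts per library and an edgeR adjusted p = 0.0498. Of the 50-base windows of Hist2h2aa2 and Hist2h3b 0% are unique, so their counts are uncertain. On chromosome 6 the lone member Hist4h4 fell, with 15.8 ± 3.38 CPM in DMSO against 4.41 ± 0.921 CPM in erastin (SD, n = 3) and a log2 fold change of -1.85. Of the 2 members on chromosome 11 Hist3h2a was the tested one. The difference between clusters was not tested, and 3 of the 4 members that did not pass are Hist2 genes.

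Annotated transcripts differed in how far they run past the stem-loop, where a replication-dependent histone mRNA is normally cut. In 22 members at most 100 bases followed it; 18 of these were tested and all 18 fell, with log2 fold changes from -5.45 to -1.67 and a median of -3.18. In another 22 more than 100 bases followed; 19 were tested and 17 fell, from -4.16 to -0.87 with a median of -2.16. Within that second set, 13 members had the polyadenylation signal AATAAA after the stem-loop, and their 10 tested genes had a median of -2.34. The other 9 members of that set, all tested, had no AATAAA there and a median of -2.08. The 16 tested members with no stem-loop in an annotated transcript had a median of -3.26 and ran from -5.42 to -0.36. Over the 37 tested members with a match, Spearman's rho between the bases after the stem-loop and the log2 fold change was 0.495, as a description across genes that share libraries, with no test. For exon length it was 0.446 over all 53, for the mean DMSO level 0.0331 and for the share of unique windows 0.279.

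**Figure D4:**
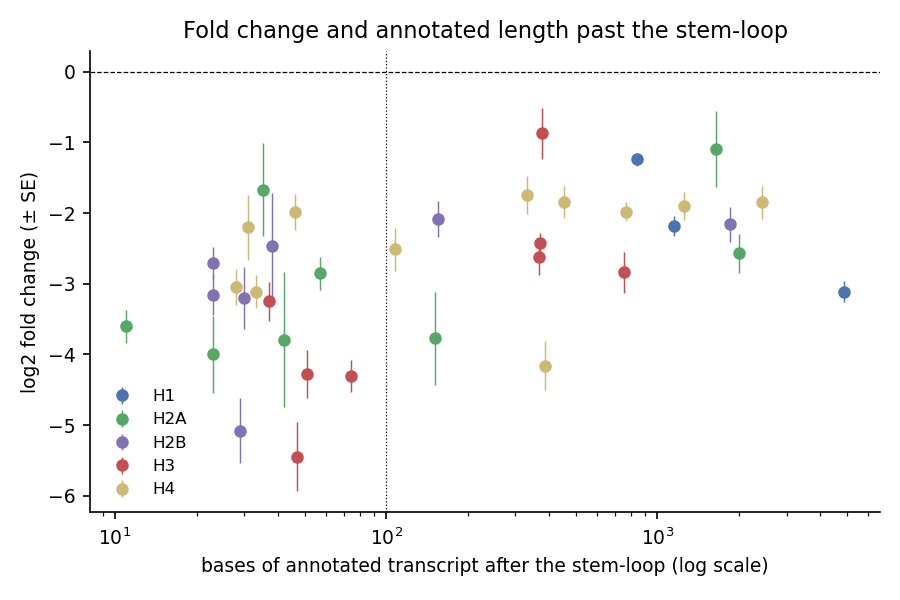
Log2 fold change (with SE) of the 37 tested members with a stem-loop against the number of annotated bases after it, on a log axis, coloured by type; the dotted line marks 100 bases. The 18 genes left of the line have a median of -3.18 and the 19 right of it a median of -2.16.

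Many members sit head to head with a partner, so that a short stretch of DNA lies between both starts. Such pairs, with starts within 500 bases, numbered 12, and each joined an H2A gene with an H2B gene. Both partners were tested in 9 pairs, and in all 9 their log2 fold changes differed by over 1, from 1.04 to 2.49 with a median of 1.45. The difference itself was not tested. SEs of the single genes ran from 0.110 for Hist1h2bc to 0.961 for Hist1h2ad, so some differences are of the size of their error. Hist1h2an and Hist1h2bp, 1.45 apart, had SEs of 0.731 and 0.751. The largest difference was between Hist2h2ac at -2.85 and Hist2h2be at -0.36, whose starts lie 239 bases apart. It rests on the 5 to 17 counts per library of Hist2h2be, whose SE was 0.676. Next came Hist1h2ah at -5.42 and Hist1h2bk at -3.20, which rests on the few counts of Hist1h2ah. Hist1h2ac at -2.57 and Hist1h2bc at -0.65 start 251 bases apart. The H2A gene had the lower value in these pairs and in 6 of the 9 in all. The H2B gene had it in the other 3, which were Hist1h2ak with Hist1h2bn at -2.96 and -4.12, Hist1h2ai with Hist1h2bl at -2.49 and -3.53, and Hist1h2ad with Hist1h2bf at -3.79 and -5.08.

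**Figure D5:**
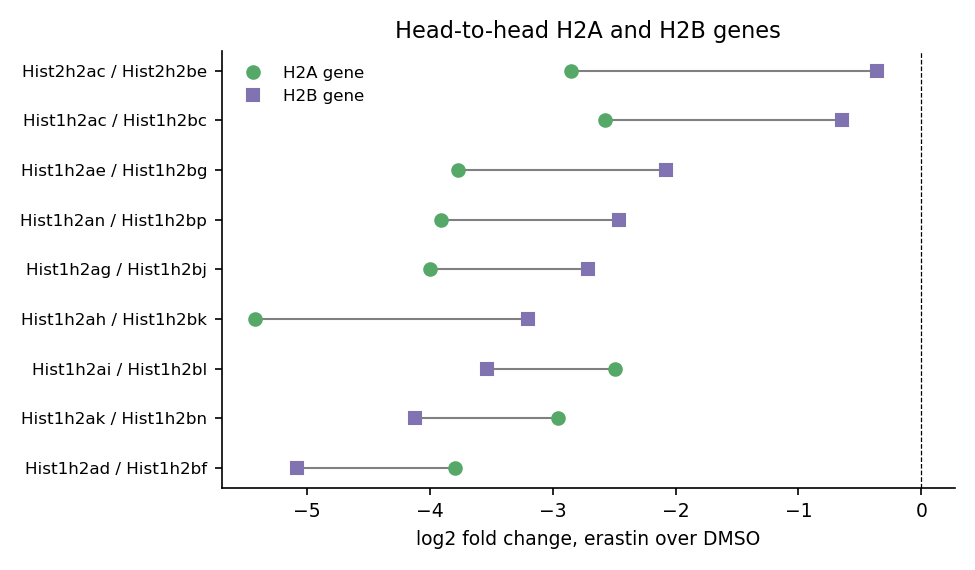
Log2 fold change, erastin over DMSO, of both genes in each of the 9 head-to-head pairs, circles for H2A and squares for H2B, joined by a line. The lines span 1.04 to 2.49 on the log2 scale, and SEs are not drawn.

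Promoter windows of 250 bases before the start were found in RefSeq (GRCm38.p6) for 59 of the 64 members, and 5 are shown because they belong to H1 and H4 genes with a large or a small change or to the DNA between partners. They are those of Hist1h1b (chr13:21780626-21780875, minus strand), Hist1h1c (chr13:23738557-23738806, plus strand), Hist1h2ac (chr13:23683960-23684209, minus strand), Hist2h2ac (chr3:96220881-96221130, minus strand) and Hist1h4j (chr13:21734784-21735033, plus strand). Capitals mark the motifs searched, on both strands. These were the box CCAAT, bound by the factor NF-Y, the TATA box with the letters TATAAA, and the octamer ATTTGCAT, bound by Oct factors such as the Pou2f1 product. A motif on the opposite strand is shown as its reverse complement.
Hist1h1b: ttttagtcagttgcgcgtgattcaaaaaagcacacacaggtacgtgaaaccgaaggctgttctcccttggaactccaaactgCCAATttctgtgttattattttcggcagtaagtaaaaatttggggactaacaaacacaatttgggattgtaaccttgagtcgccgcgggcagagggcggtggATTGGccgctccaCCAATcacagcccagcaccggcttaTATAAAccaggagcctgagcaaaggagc
Hist1h1c: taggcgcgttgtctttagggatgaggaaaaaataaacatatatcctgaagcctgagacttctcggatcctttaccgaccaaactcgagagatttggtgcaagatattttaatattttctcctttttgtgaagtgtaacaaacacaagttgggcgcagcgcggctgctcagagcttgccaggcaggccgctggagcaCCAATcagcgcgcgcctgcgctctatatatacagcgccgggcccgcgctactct
Hist1h2ac: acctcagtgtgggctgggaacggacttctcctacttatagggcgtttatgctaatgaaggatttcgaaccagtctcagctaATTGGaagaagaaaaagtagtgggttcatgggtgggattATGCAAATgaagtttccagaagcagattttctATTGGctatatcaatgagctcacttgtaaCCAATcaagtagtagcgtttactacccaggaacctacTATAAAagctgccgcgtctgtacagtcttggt
Hist2h2ac: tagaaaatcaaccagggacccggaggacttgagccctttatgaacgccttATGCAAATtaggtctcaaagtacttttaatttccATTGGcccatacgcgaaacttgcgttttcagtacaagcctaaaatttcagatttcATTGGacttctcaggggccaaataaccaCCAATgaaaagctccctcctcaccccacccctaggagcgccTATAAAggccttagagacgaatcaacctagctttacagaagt
Hist1h4j: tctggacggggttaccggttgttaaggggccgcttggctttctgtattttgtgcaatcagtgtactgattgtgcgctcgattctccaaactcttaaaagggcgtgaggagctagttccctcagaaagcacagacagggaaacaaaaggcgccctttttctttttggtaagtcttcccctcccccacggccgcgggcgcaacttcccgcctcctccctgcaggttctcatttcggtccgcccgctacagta
The windows of Hist1h2ac and Hist2h2ac reach across to the starts of Hist1h2bc and Hist2h2be. Each holds 3 copies of CCAAT, and a match to each of the other motifs. Hist1h1b also holds 3 copies along with a TATA box. Hist1h1c holds a single copy and no match to the other motifs, and Hist1h4j has no match to any of them.

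CCAAT stood in 48 of the 59 member windows, or 81.4%, against 33.8% of all 32851 windows of that length. It was in all 6 H1, all 18 H2A and all 13 H2B windows, in 8 of 10 H3 windows and in 3 of 12 H4 windows. The TATA box stood in 49.2% of member windows against 12.4% of all. The octamer stood in 11 member windows, or 18.6% against 1.60% of all, and these were 7 of the 18 H2A and 4 of the 13 H2B windows. Windows of head-to-head partners share DNA, so they are not separate. A match is a run of letters and not a measured binding site.

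Reads from copies of the same coding sequence limit the values of single genes. The median member had 45.5% of its 50-base windows in no other annotated gene. Of the members with under 20% unique windows, 11 were tested and all 11 fell, with a median log2 fold change of -3.10. Of those with at least 80%, 11 were tested and 10 fell, with a median of -1.98. Overlap with another annotated gene was present for 23 members, on the opposite strand for most, and whether counting used the strand is not given in the sources used here. The 18 tested genes among them had a median of -2.88, and the 35 tested members with no overlap had a median of -2.84.

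Of 26 tested genes that make and handle histone mRNA, 11 passed, a share near the 43.1% of all genes that did. Among them 8 rose and 3 fell, against 21.6% and 21.5% of all genes, 15 did not pass, and the median log2 fold change was 0.20. With upper-quartile scaling, and likewise with an offset for GC content and length, 4 rose and 3 fell, and with no scaling beyond total counts 10 rose and 2 fell. Slbp was at 15.0, 21.9 and 17.7 CPM in DMSO and 19.3, 16.2 and 18.6 CPM in erastin, with overlapping groups (log2 fold change -0.019, edgeR adjusted p = 0.938). Upf1, a helicase that takes part in histone mRNA decay, rose: its mean was 58.6 ± 1.18 CPM in DMSO and 102 ± 15.3 CPM in erastin (SD, n = 3), with a log2 fold change of 0.80 and an edgeR adjusted p = 2.17e-05. Cstf2, part of the 3′-end cleavage machinery, rose by a log2 fold change of 0.71. The genes that fell were Ccne1, the cyclin E1 gene, with a log2 fold change of -0.75, Lsm10, a subunit of the U7 snRNP, with -0.57, and Ctif, a translation factor, with -0.48. Npat, the coactivator of histone transcription, rose by 0.31 on the log2 scale, and like Slbp it was chosen after its values were seen. Without erastin replicate 1 the number passing dropped from 11 to 6, and without erastin replicate 2 it was 7. Over all genes the number passing also dropped, from 6028 to 4802 without erastin replicate 1 and to 5271 without erastin replicate 2.

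Among 21 histone chaperone and deposition genes, 5 fell, 2 rose and 14 did not pass, with a median log2 fold change of -0.082. Over all genes 21.5% fell and 21.6% rose, so the number that fell was near the background. Asf1b, which hands H3 and H4 to the assembly machinery, fell. Its mean was 8.23 ± 0.556 CPM in DMSO and 1.48 ± 1.04 CPM in erastin (SD, n = 3), with a log2 fold change of -2.46 and an edgeR adjusted p = 2.29e-04. Mms22l, which acts at replication forks, and Hjurp, the chaperone of the centromeric H3, had log2 fold changes of -2.04 and -0.56. The 2 that rose were Ssrp1 and Supt16, the subunits of the FACT complex, at 0.32 and 0.33. With total counts as the only scaling 5 fell and 4 rose, and with the offset for GC content and length 9 fell and 3 rose.

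Histone genes outside the clusters were lower as well. Of 11 tested, 8 fell and 0 rose (6 to 9 fell and 0 rose under each alternative setting), with a median log2 fold change of -0.57. Over all genes 21.5% fell and 21.6% rose. H2afx, which encodes the DNA damage variant H2A.X, fell. Its mean was 61.8 ± 1.16 CPM in DMSO and 25.9 ± 3.21 CPM in erastin (SD, n = 3), with a log2 fold change of -1.26 and an edgeR adjusted p = 3.89e-07. H2afj had a log2 fold change of -1.10, and Cenpa, the centromeric H3, of -2.98. The values of H2afz, H2afv and H3f3b, none of which passed, were 0.017, -0.50 and 0.041. The difference between these genes and the clustered ones was not tested.

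Of 24 S-phase genes 13 fell, where 21.5% of all genes did, 1 rose and 10 did not pass, with a median log2 fold change of -0.61. Thymidine kinase gene Tk1 was at 10.8, 12.0 and 10.5 CPM in DMSO and 0.838, 1.14 and 0.778 CPM in erastin (log2 fold change -3.60, SE 0.292, edgeR adjusted p = 2.07e-07). Helicase subunit genes Mcm5 and Mcm6 had log2 fold changes of -2.24 and -0.87. Cdt1, a licensing factor, rose, with 6.12, 5.27 and 6.93 CPM against 9.68, 14.6 and 7.47 CPM (log2 fold change 0.79, edgeR adjusted p = 0.0228). Its call was lost without DMSO replicate 1, DMSO replicate 2 or erastin replicate 2, when 0 genes of the list rose. The part of these changes in the histone result was not tested.

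Short and untailed RNAs were compared with the members because the libraries were size-selected. Over all genes tested 21.5% fell and 21.6% rose. Other protein-coding genes with at most 1000 bases of exon numbered 204. Of them 33.8% fell, the median log2 fold change was -0.24, and 3 of those that fell had a value of -2 or less. Other protein-coding genes with a single exon numbered 251. Of them 20.7% fell, the median was -0.11, and 4 of those that fell had a value of -2 or less. Small nucleolar RNAs, which also lack a tail, fell in 54 of 117 cases and rose in 0, with a median of -1.06. Of those that fell, 5 were at -2 or less. Small nuclear RNAs fell in 16 of 24 cases and rose in 0, with a median of -1.68, and 7 of those that fell were at -2 or less. RNA quality or recovery that could move with these groups was not tested. With an offset for the GC content and length of each gene the members' median was -2.55, and all 53 had a value.

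Total counts ran from 13333911 to 20509970 per library, and pairs within a group differed by more than counting noise, with a chi-square per degree of freedom of 11.0 to 19.2. Fibroblast markers were abundant in every library, with a sum of 35800 to 38800 CPM in DMSO and 25700 to 27200 CPM in erastin. Of these 12 markers 9 fell, against 21.5% of all genes. Immune markers summed to 6.12 to 7.76 CPM in DMSO and 4.56 to 10.5 CPM in erastin, and epithelial markers to 2.18 to 3.25 CPM and 2.18 to 3.65 CPM. Endothelial markers were at 4.99 to 8.24 CPM and 14.9 to 18.0 CPM, with Kdr and Tek higher and Cldn5 at 0 in all libraries. Pluripotent cell markers stayed at 1.01 CPM or less, and Pou5f1, Zfp42 and Dppa3 were at 0. The part of these cell types in the histone result was not tested.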

How the data were processed

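The authors deposited whole-number read counts per gene, with no normalization, for 6 libraries (3 DMSO, 3 erastin); 0 per-sample columns were left unused. The submitters' processing notes name HTSeq 0.9.1, SAMtools and the mm10 build. The aligner, the annotation, strand use and the treatment of reads matching several genes are not given in the sources used here. Library preparation used heat fragmentation, an Ion Total RNA-seq kit and selection of short fragments, per the labels' protocols; selection and near-identical copies can change how well histone RNAs are counted. Identifiers were matched to GENCODE M21, and 42462 had a symbol. Counts were tested with edgeR 4.0.16 in R 4.3.3 (trimmed mean of M values scaling, filterByExpr with a minimum count of 10 and total of 15, glmQLFit and glmQLFTest, treatment as the only term, Benjamini-Hochberg over 14000 genes, adjusted p under 0.05), after the scripts had been tested on simulated data. DESeq2 1.42.0 was an alternative. Type sums use every member and have no test.

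Depth was 13333911 to 20509970 counts per library. Intervals and the limit of 3 counts cover counting error only. The labels do not say that the 3 libraries of a group came from separate cultures or animals, so p-values measure the spread between these libraries, which may be technical. Over all tested genes same-numbered libraries did not deviate together (correlations of 0.0401, 0.00379 and -0.0055), so the numbers were not treated as pairs. Among the 53 tested members, replicate 2 was most often the highest library both in DMSO (36 members) and in erastin (30 members). The members and gene lists were chosen with earlier results of these data known. Full values are given, in each type, for the 4 members with the highest mean, for those with the lowest and highest log2 fold change and for those that did not pass. Of each other list the 3 genes with the smallest p-value are named, with those that passed in the rarer direction. Alternatives covered scaling, filters, a replicate block, GC content and length, the threshold, DESeq2 and leaving out each library.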

Additional observations from a re-analysis of the deposited data

How the results depend on the processing

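Over 16 alternative settings 47 to 49 members fell and 0 rose, and the number of genes passing overall ran from 4305 to 6104. The members' median log2 fold change ran from -3.03 to -2.55 over 15 settings. Of 30 members given in full, 29 changed neither sign nor call in any setting run; the exception, Hist2h2ab, passed with a minimum of 1 CPM (-1.40, adjusted p = 0.050) and without erastin replicate 2 (-1.97). The count of mRNA synthesis and processing genes passing, 11, was 7 with upper-quartile factors, 7 with the GC and length offset, 5 at an adjusted p under 0.01, and 6 to 10 with 1 library left out. The count of chaperone genes passing, 7, was 12 with the GC and length offset, both with and without a replicate block. The H2B sum moved from -1.79 to -2.24 when taken per kilobase. The cause was not tested. With the replicate block 48 members fell, 0 rose and 5882 genes passed. The median log2 fold change over all genes was -0.055 with upper-quartile scaling and 0.065 with total counts alone. At 0 to 22 counts per library, the 11 untested members are limited by depth.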
